A study of Mus musculus with 2 samples.

Results

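Border-associated macrophages are the resident macrophages of the brain's surfaces and vessels, found in the meninges, the perivascular spaces and the choroid plexus. They take up proteins, lipids and cell debris through scavenger and lectin receptors, and genes such as Mrc1, Lyve1 and Cd163 are commonly used to tell them from microglia, the macrophages of the brain tissue itself. The 8 genes described here, Mrc1, Cd163, Folr2, Lyve1, Clec4n, Cd209f, Cbr2 and Pf4, are 8 of the 31053 genes counted in each library. They were chosen by name as genes of these cells and not by a limit on their values, but with earlier results of these data known. They were counted in every barcode, the tag of 1 droplet, with at least 1000 UMIs, each of which stands for 1 captured RNA molecule, and at most 17% of them mitochondrial. Of the 10107 WT barcodes that passed, 1497 held at least 1 UMI of the 8 genes, and of the 7604 CD169-DTR barcodes 1048 did.

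The 2 libraries come from brains with GL261, a mouse glioma cell line, of which 100000 cells were injected into WT or CD169-DTR mice of the C57BL/6 background, 8 to 12 weeks old per the study's methods. CD169-DTR mice were heterozygous: the diphtheria toxin (DT) receptor replaces 1 copy of Siglec1, the gene of CD169, and the other copy is left, so DT kills the cells that express CD169. Both groups received DT, at 40 ng/g in the methods, on day −1 and day 4 relative to the injection. At 10 dpi the mice were perfused to remove blood, the right hemisphere was digested and passed over Percoll, and CD45.2+ cells without propidium iodide were sorted from 3 pooled mice per group into 1 droplet library. CD169 is a surface protein of border-associated macrophages, so the comparison asks which of their genes are left after DT. Whether the meninges stayed on the hemisphere is not given in the sources used here. With 1 library per group, no difference was tested, the spread between mice is unknown, and every interval below is a 95% interval that covers counting error only.

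Siglec1, a receptor for sialic acids, was lower in the library labelled CD169-DTR, at 5.46 CPM (its UMIs scaled to the sum of all UMIs; 4.95 to 6.00) against 17.8 CPM in WT (16.9 to 18.6), a log2 ratio of WT over CD169-DTR of 1.70 (1.55 to 1.86). It was lower in the macrophage clusters (11.8 against 38.2 CPM) and in the microglia clusters (5.62 against 19.0 CPM). The WT library held 101808996 UMIs, with a median of 7776 per kept barcode, and the CD169-DTR library held 84065489, with a median of 8099.5. 21 kept barcodes occurred in both libraries. The barcodes were clustered without the 8 genes and named from other markers, so each class is marker-based and no sorted population. Of 27 clusters, 8 were microglia, 3 were macrophages with monocyte genes (cluster 3, led by Gpnmb and Ms4a7; cluster 4, by Clec4e and F10; cluster 15, by Ear2 and Adgre4), 3 were DCs, and 2 stayed unnamed. No cluster was named from the 15 other border-macrophage genes used for naming, either at resolution 0.5, 1 or 2 or without integration of the libraries. At resolution 1 this list scored above the other lists in the unnamed cluster led by Acta2, Tagln and Myl9, but 1 marker was detected where 3 were needed. F13a1, one of the 15, was among the leading genes of cluster 15, beside Ace and Treml4, which mark patrolling monocytes.

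All 8 genes are protein-coding, lie on 6 chromosomes and have the same Ensembl identifier in the files and in GENCODE M21 (GRCm38, the mm10 build named in the labels). Mrc1 spans chr2:14229392-14332057 on the plus strand, Cd163 chr6:124304656-124330527 (plus), Folr2 chr7:101839988-101857194 (minus) and Lyve1 chr7:110850607-110863239 (minus). Clec4n spans chr6:123229843-123247021 (plus), Cd209f chr8:4102787-4105835 (minus), Cbr2 chr11:120729489-120732114 (minus) and Pf4 chr5:90772435-90773383 (plus). 6 of the 8 genes have a promoter entry in RefSeq (GRCm38.p6), and Lyve1 and Clec4n have none. Promoter sequence is shown for Mrc1, Pf4 and Cbr2, which were found together in all 13 of the barcodes rich in these genes described below, and for Cd209f, of which nearly all UMIs lay in such barcodes. From the 250 bases before each RefSeq start, only those that also lie before the GENCODE start are printed, which leaves 228 bases for Mrc1, 250 for Pf4, 157 for Cbr2 and 179 for Cd209f. Each is written 5′ to 3′ on the strand of its gene. Capitals mark AGGAAG or its reverse complement, the core bound by PU.1, a factor of macrophages. The printed stretches are chr2:14229164-14229391 (plus) for Mrc1, chr5:90772185-90772434 (plus) for Pf4, chr11:120732115-120732271 (minus) for Cbr2 and chr8:4105836-4106014 (minus) for Cd209f.
Mrc1: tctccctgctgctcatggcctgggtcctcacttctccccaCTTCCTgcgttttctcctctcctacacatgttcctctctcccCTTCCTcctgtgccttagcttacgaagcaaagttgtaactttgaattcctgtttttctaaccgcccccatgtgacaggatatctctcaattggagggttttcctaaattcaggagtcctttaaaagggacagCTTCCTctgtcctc
Pf4: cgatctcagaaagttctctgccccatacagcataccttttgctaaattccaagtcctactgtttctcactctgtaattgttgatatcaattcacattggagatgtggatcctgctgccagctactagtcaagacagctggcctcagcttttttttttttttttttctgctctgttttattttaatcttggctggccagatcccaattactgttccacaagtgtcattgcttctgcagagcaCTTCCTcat
Cbr2: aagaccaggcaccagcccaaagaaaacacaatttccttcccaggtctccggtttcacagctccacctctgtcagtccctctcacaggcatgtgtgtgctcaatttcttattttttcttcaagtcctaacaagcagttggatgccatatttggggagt
Cd209f: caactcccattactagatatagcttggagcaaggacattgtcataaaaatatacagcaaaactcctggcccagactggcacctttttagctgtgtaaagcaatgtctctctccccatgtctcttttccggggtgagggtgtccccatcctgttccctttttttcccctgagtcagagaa
In the full windows of 250 bases, AGGAAG was found on either strand 3 times for Mrc1, 1 time each for Pf4 and Cbr2, and not for Cd209f. The match of Cbr2 lies past the printed stretch. TGCTGA, the half-site of MAF factors, was in none of these 4 windows on either strand, and was in both windows that RefSeq lists for Folr2. Of 32851 RefSeq windows of the same length, 29.5% held AGGAAG and 16.1% held TGCTGA, and the letters do not overlap in these windows. A match describes letters and no binding site, and the lack of one says only that these letters are not in the window.

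The uptake receptors were spread over several cell classes. Mrc1, the mannose receptor CD206, had 694 UMIs in 355 WT barcodes and 672 UMIs in 268 CD169-DTR barcodes, and 63.4% and 60.4% of these barcodes held a single UMI. Macrophages held it at 16.0 CPM in WT (14.2 to 17.9) and 23.6 CPM in CD169-DTR (20.7 to 26.9), DCs at 12.3 (10.5 to 14.3) and 42.7 CPM (36.3 to 49.9), and microglia at 4.86 (4.23 to 5.57) and 5.12 CPM (4.53 to 5.77). In WT the intervals of macrophages and DCs overlapped, and in CD169-DTR DCs were above macrophages. The DC signal lay in the cluster led by Cd209a, at 18.1 and 56.6 CPM, and the Xcr1 and Ccr7 clusters held 5 WT UMIs and no CD169-DTR UMI.

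Cd163, the scavenger receptor for haemoglobin bound to haptoglobin, was rare. In WT it had 58 UMIs in 41 barcodes, of which 32 UMIs lay in DCs, 8 in pDCs and 8 in macrophages. In CD169-DTR it had 36 UMIs in 15 barcodes, and 26 of them lay in microglia clusters, mostly in the few barcodes described below. Folr2, a folate receptor, was mainly a low signal of many microglia here: 88.8% of its 401 WT UMIs and 84.3% of its 388 CD169-DTR UMIs were in microglia clusters, at 8.25 CPM (7.41 to 9.15) and 6.25 CPM (5.59 to 6.96). Most of its barcodes, 77.9% and 73.1%, held a single UMI. Macrophages were below microglia, at 1.40 CPM (0.911 to 2.04) in WT and 3.60 CPM (2.51 to 5.00) in CD169-DTR.

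Lyve1, a receptor for hyaluronan also known from lymphatic endothelium, was the scarcest of the uptake receptors, with 19 UMIs in 12 WT barcodes and 17 UMIs in 9 CD169-DTR barcodes. In WT, 11 of the 19 UMIs lay in the fibroblast cluster, 7 of them in a barcode with 169 UMIs of Dcn, a fibroblast matrix gene, and no Mrc1. In CD169-DTR, 8 of the 17 UMIs lay in 1 barcode with 39 UMIs of Mrc1. The macrophage clusters held no Lyve1 UMI in either library.

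The lectins differed in range. Clec4n, the receptor Dectin-2 that binds fungal mannans, had 2309 and 1760 UMIs, 69.3% and 63.0% of them in macrophages, at 85.9 CPM (81.7 to 90.2) in WT and 114 CPM (107 to 121) in CD169-DTR. Granulocytes held it at 243 CPM (207 to 284) and 204 CPM (176 to 236), above macrophages in CPM in both libraries. DCs held it at 29.2 CPM (26.4 to 32.1) and 116 CPM (105 to 127). Microglia held 2.18 and 0.592 CPM. Cd209f, a lectin of the DC-SIGN family, had 5 UMIs in 2 WT barcodes and 34 UMIs in 6 CD169-DTR barcodes. It belongs to a group of similar neighboring genes, and reads that could not be told apart between them would not have been counted to 1 gene.

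Cbr2, a carbonyl reductase, had 205 and 204 UMIs. Macrophages held it at 7.46 CPM (6.27 to 8.81) in WT and 8.84 CPM (7.07 to 10.9) in CD169-DTR, and microglia at 0.695 and 0.936 CPM. Its highest level was in the unnamed cluster led by Acta2, Tagln and Myl9, genes of smooth muscle, with 22 UMIs in WT (40.2 to 97.0 CPM) and 40 UMIs in CD169-DTR (67.9 to 129 CPM), where 9 of 24 and 11 of 22 barcodes held it. Pf4, the chemokine CXCL4 known from platelets, had 1971 and 1383 UMIs, 77.9% and 76.9% of them in macrophages, at 82.4 CPM (78.4 to 86.7) and 109 CPM (103 to 116). Few barcodes carried most of it: 44 WT barcodes with 10 or more UMIs held 66.4% of its UMIs and 35 CD169-DTR barcodes held 69.8%, and 37 and 25 of these lay in macrophage clusters. The highest single barcodes held 190 and 131 UMIs. Of 5 platelet genes, Ppbp had 1 UMI and Itga2b and Gp1bb had none in the macrophage clusters outside the candidates at the depth of 4500 UMIs described below, while Gp9 had 1376 UMIs in microglia clusters. The part of platelet RNA in Pf4 was not tested.

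**Figure D1:**
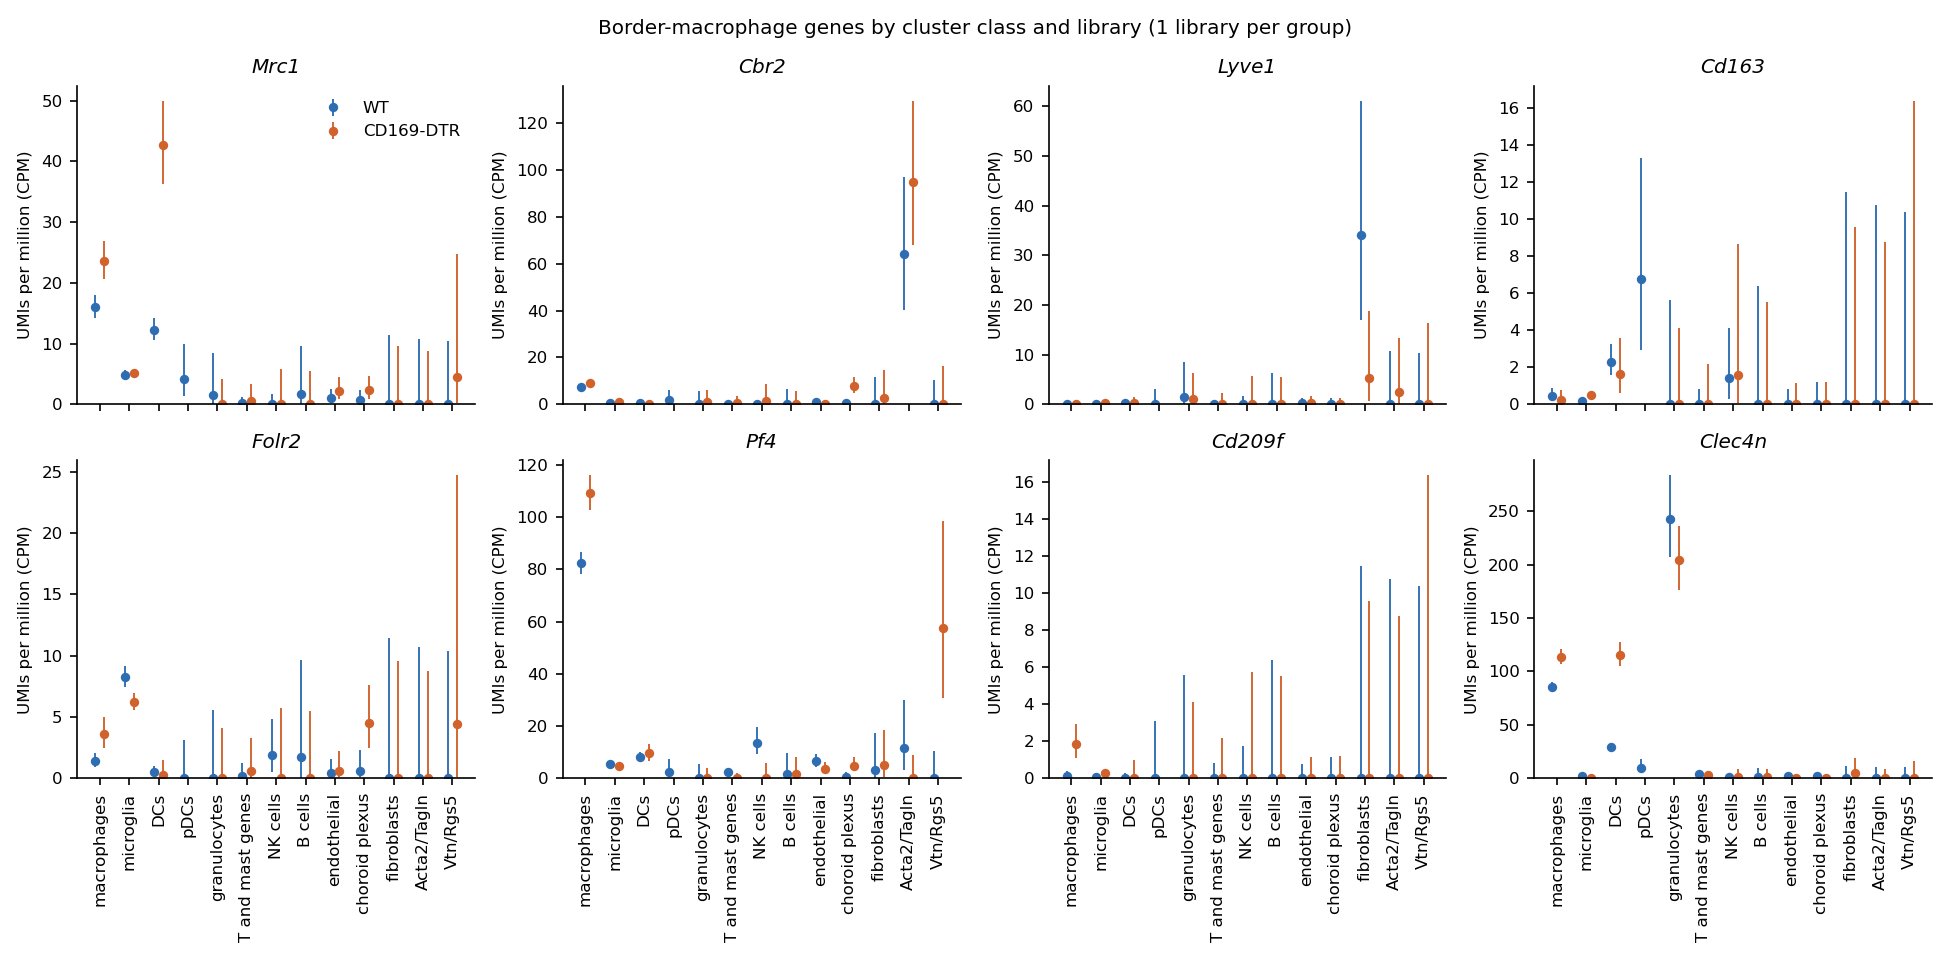
Level of each of the 8 genes, in CPM on a linear axis from 0, in 13 cluster classes of the WT library (blue) and the CD169-DTR library (orange); bars are exact 95% Poisson intervals, and a class with fewer than 15 barcodes in a library is not drawn. Pf4 and Clec4n stand high in macrophages (82.4 and 85.9 CPM in WT), Folr2 in microglia, Cbr2 in the Acta2/Tagln cluster and Lyve1 in WT fibroblasts.

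To compare shares of barcodes, each barcode was thinned to 4500 UMIs drawn at random, which left out 1976 WT and 1062 CD169-DTR barcodes that were shallower. Clusters named T, NK or B cells, which should lack the 8 genes, gave a background level. Most T cell barcodes lay in cluster 10, whose 10 leading genes were 6 of mast cells, such as Mcpt2 and Cpa3, and 4 of T cells. Of its 474 WT and 222 CD169-DTR barcodes, 437 and 210 held 3 or more UMIs of the 4 T cell genes, 21 and 7 held 3 or more of the mast cell genes, and none held both. In all, among 651 such WT barcodes (median 7173 UMIs before thinning) and 304 CD169-DTR barcodes (median 7222.5), the share with a UMI of a single member reached at most 0.922% and 0.987%, both for Clec4n. None of them held 2 or more members, which allows a share of up to 0.461% and 0.987%. Without cluster 10, an alternative added after the data were seen, the share reached at most 0.678% of 295 and 0.806% of 124 barcodes for any member, and again none held 2. In macrophages, by contrast, 26.6% of 1626 WT barcodes and 37.6% of 655 CD169-DTR barcodes held at least 1 member (median depths 9066 and 12801 UMIs). Clec4n was held by 15.3% and 24.4% of macrophages, Pf4 by 8.86% and 12.4%, Mrc1 by 4.00% and 6.11% and Cbr2 by 2.71% and 2.75%. Few granulocytes were deep enough: 21.4% of 28 in WT (8.30 to 41.0) and 17.3% of 52 in CD169-DTR (8.23 to 30.3) held Clec4n. By this measure granulocytes were not above macrophages in CD169-DTR. Folr2, with 7 and 6 barcodes, and Cd163, Cd209f and Lyve1, with 0 to 2, were in macrophages at or near the share in lymphocytes. For Lyve1 the counts of 0 allow up to 0.185% and 0.458% of macrophages.

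Co-detection was rare. At the common depth, 89.8% of WT and 91.6% of CD169-DTR barcodes held none of the 8 genes and 8.99% and 7.31% held 1. In WT, 89 barcodes held 2 members and 5 held 3, and in CD169-DTR 50 held 2 and 9 held 3. 2 or more members were held by 71 of 1626 WT and 45 of 655 CD169-DTR macrophages, by 17 of 4106 and 8 of 4816 microglia, and by 6 of 1040 and 14 of 225 DCs. Barcodes with 4 or more of the 8 members, called candidates here, numbered 3 of 8131 in WT and 10 of 6542 in CD169-DTR. They come from a limit on a count of genes and were not called as a cell type. Just below the limit, with 3 members, lay 5 WT barcodes, all in macrophage clusters, and 9 CD169-DTR barcodes, of which 7 lay in macrophage clusters, 1 in microglia and 1 in DCs. No barcode held all 8. Before thinning, 12 WT and 14 CD169-DTR barcodes held 4 or more members.

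**Figure D2:**
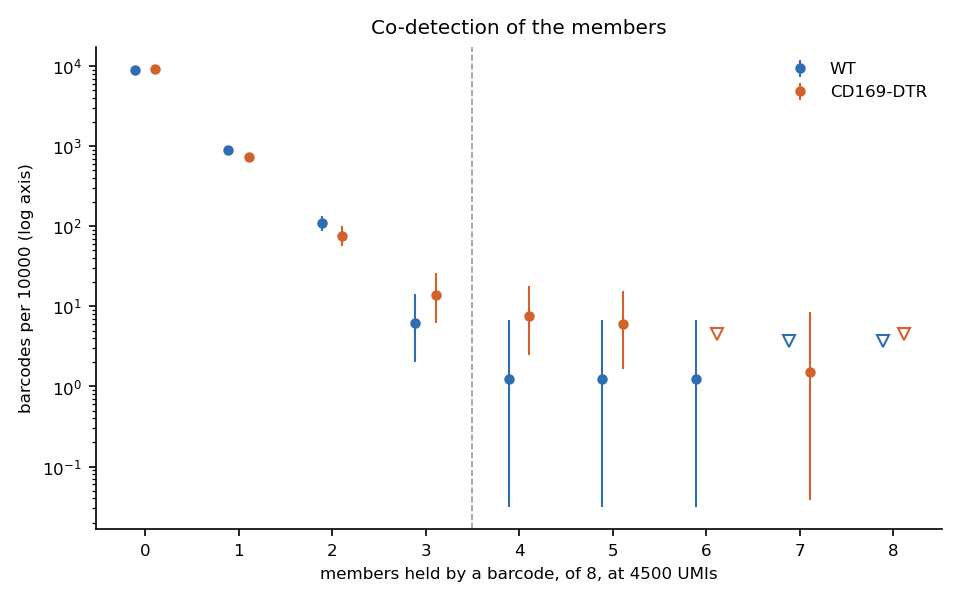
Barcodes per 10000 (log axis) that held 0 to 8 of the 8 genes after thinning to 4500 UMIs, in WT (blue, 8131 barcodes) and CD169-DTR (orange, 6542); bars are exact 95% binomial intervals, open triangles give the limit that a count of 0 allows, and the dashed line separates the candidates. From 3 members on, the WT points lie below the CD169-DTR points where both have a barcode, with overlapping intervals.

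The candidates were chosen by the 8 genes, so their levels of these genes describe them and test nothing. Mrc1, Cbr2 and Pf4 were held by all 13. In the 3 WT candidates Mrc1 had 8, 9 and 3 UMIs at full depth, Cbr2 2, 3 and 1, and Pf4 16, 11 and 6. In the 10 CD169-DTR candidates Mrc1 ranged from 1 to 39 UMIs (median 6.5), Cbr2 from 1 to 22 (median 3) and Pf4 from 3 to 30 (median 14.5). Folr2 was held by 2 of 3 WT and 8 of 10 CD169-DTR candidates, Cd163 by 2 and 6, Clec4n by 2 and 5, and Lyve1 by 1 and 1. Clec4n, abundant in other macrophages, had at most 5 UMIs in a candidate.

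Cd209f lay almost wholly in candidates in CD169-DTR. Of its 34 UMIs in CD169-DTR, 33 (97.1%) lay in 5 candidates, with 13, 11, 5, 3 and 1 UMIs. In WT, 3 of its 5 UMIs lay in 1 candidate, and the other 2 lay in a barcode of 4348 UMIs that was too shallow to be a candidate. That barcode, in macrophage cluster 3, held 7 of the 8 genes, with 24 UMIs of Pf4, 6 of Mrc1 and 5 of Cd163, and its doublet score of 0.382 was above the WT cut-off of 0.145 for the highest 8%. Cd163 had 26 of its 36 CD169-DTR UMIs (72.2%) in the candidates, against 4 of 58 (6.90%) in WT. The share was 35.8% against 2.93% for Cbr2, 13.7% against 2.88% for Mrc1, 11.2% against 1.67% for Pf4 and 0.682% against 0.260% for Clec4n. It was 9.54% against 3.99% for Folr2 and 47.1% against 5.26% for Lyve1, in CD169-DTR all from 1 barcode. These shares rest on 10 CD169-DTR and 3 WT candidates chosen by these genes, so the contrast in part restates their number.

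The candidates did not group in 1 cluster. In WT they lay in 3 microglia clusters (5, 7 and 12). In CD169-DTR, 5 lay in microglia clusters, 4 of them in cluster 7, which is led by Il1a and Atf3, and 4 lay in macrophage clusters 3 and 4. The remaining one lay in the choroid plexus cluster, with 1180 UMIs of Ttr, the transthyretin of choroid plexus cells. Their depth ranged from 6759 to 27790 UMIs and their mitochondrial share from 1.45% to 11.5%. The 2 deepest, candidates 6 and 7 of CD169-DTR, had doublet scores among the highest 8% of their library, and without such barcodes 3 WT and 8 CD169-DTR candidates remained. Siglec1, which was not used to choose them, had 9, 3 and 1 UMIs in the WT candidates. In CD169-DTR, 3 of the 10 candidates held 1 UMI each and the other 7 held none.

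**Figure D3:**
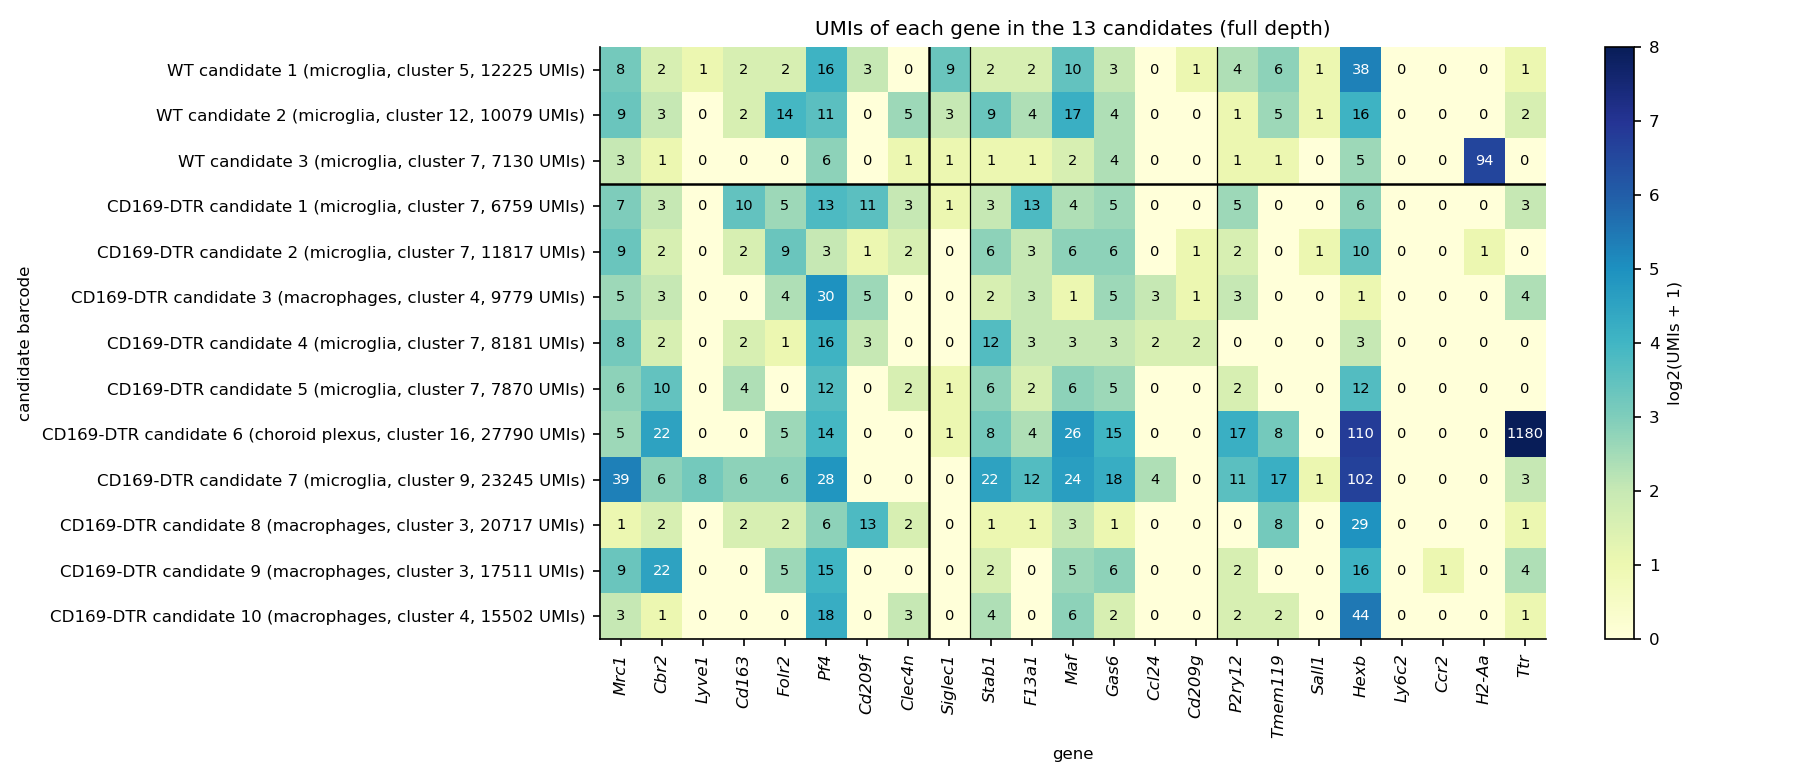
UMIs at full depth (numbers; shade is log2 of UMIs + 1) of the 8 members (left of the thick line), Siglec1 and 14 further genes in the 13 candidates, 3 of WT above the horizontal line and 10 of CD169-DTR below it, with class, cluster and depth beside each name. Every row has Mrc1, Cbr2 and Pf4; Ly6c2 is at 0 in all, H2-Aa is high in WT candidate 3 and Ttr in CD169-DTR candidate 6.

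Genes outside the choice were compared between the candidates and the other macrophages at the common depth, over both libraries together. Candidates numbered 3 in WT and 10 in CD169-DTR, while macrophage clusters held 1626 WT and 655 CD169-DTR barcodes. A pooled ratio thus mixes the libraries and can differ from the ratio within either one. The 15 other border-macrophage genes summed to 2632 CPM in the candidates, 482 CPM in other macrophages and 982 CPM in microglia. By library, candidates and other macrophages were at 3852 and 488 CPM in WT and at 2267 and 465 CPM in CD169-DTR. In the pooled values, 9 of the 15 had a UMI in the candidates and all 9 were higher there than in other macrophages. The interval of the ratio lay above 0 for 8 genes pooled, for 5 within WT and for 8 within CD169-DTR. Stab1, a scavenger receptor, was at 393 CPM in candidates against 139 CPM in other macrophages, a log2 ratio of 1.50 (0.84 to 2.09). F13a1, a coagulation factor chain, was at 342 against 105 CPM (1.70; 0.98 to 2.33) and at 0.698 CPM in microglia. For both genes the difference came from CD169-DTR, with 1.93 (1.22 to 2.56) for Stab1 and 1.52 (0.73 to 2.22) for F13a1, while in WT, with 2 and 3 UMIs in candidates, Stab1 was at 0.03 (−3.02 to 1.88) and F13a1 at 1.23 (−1.05 to 2.79). Gas6, a ligand of receptors for dying cells, was at 462 against 27.7 CPM (4.06; 3.43 to 4.63), and Maf, a transcription factor of resident macrophages, at 564 against 148 CPM (1.93; 1.38 to 2.42). These 2 had intervals above 0 in each library, which for Gas6 spanned 2.65 to 5.26 (WT) and 3.08 to 4.52 (CD169-DTR) and for Maf 1.92 to 3.55 and 0.78 to 2.19. Maf in microglia, at 593 CPM, was close to its level in the candidates. Gas6 was at 165 CPM and Stab1 at 149 CPM in microglia, both below the candidates and above other macrophages in the pooled values. Within WT this order did not hold for Stab1, at 148 CPM in candidates, 145 in other macrophages and 141 in microglia. Microglia clusters held 3 of the WT and 5 of the CD169-DTR candidates.

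Among the further genes of this list, Colec12, a scavenger lectin, had 3 UMIs in the candidates (51.3 CPM) against 0.586 CPM in other macrophages, and Cd209g had 2 UMIs there and none in other macrophages or microglia. The chemokine Ccl8 was at 615 against 32.7 CPM, but 22 of its 36 UMIs were in 1 WT candidate. Cd209d, Cd209b, Ednrb, Timd4, Vsig4 and Fcna had no UMI in the candidates, which allows up to 51.3 CPM each. Single candidates held 3 to 9 of the 15 genes at full depth.

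Genes of the other macrophage kinds were measured in the same way. The 10 genes of monocyte-derived macrophages summed to 1214 CPM in the candidates against 9698 CPM in other macrophages, and 8 of the 10 had intervals below 0. By library the sums were 593 against 10704.5 CPM in WT and 1400 against 7184 CPM in CD169-DTR. Ly6c2, a monocyte surface protein, had no UMI in any candidate and was at 1704 CPM in other macrophages (2048 in WT and 846 in CD169-DTR). Ms4a7 was the only gene of the list not lower in the pooled candidates, at 667 against 600 CPM (0.15; −0.34 to 0.61). The 8 microglial genes summed to 3607 CPM in the candidates, between other macrophages (1553 CPM) and microglia (21551 CPM). P2ry12, which marks microglia, was at 222 CPM in the candidates, 92.5 CPM in other macrophages and 1448 CPM in microglia. Single candidates had from 5.11 to 112 UMIs of these 8 genes per 10000. The part that microglial RNA or doublets with microglia have in the candidates was not tested.

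The 5 MHC class II genes split the candidates. WT candidate 3 held 94 UMIs of H2-Aa and 262 of Cd74, and at full depth no other candidate held more than 1 of H2-Aa and 12 of Cd74. Beyond the lists, the 10 genes with the highest ratio of candidates over other macrophages, among those with 30 or more UMIs in candidates, were Ttr, Pmp22, Ccl8, Dab2, Ccl12, Nlrp3, Fcrls, Glul, Kdm6b and Cd83, with log2 ratios from 5.08 down to 2.77. Of the 192 Ttr UMIs, 186 came from the candidate in the choroid plexus cluster. Dab2, an adaptor of receptor uptake, was at 667 CPM in candidates, 62.8 CPM in other macrophages and 20.8 CPM in microglia, and 9 of 13 candidates held it. Fcrls was held by 12 of 13 and was higher in microglia (2305 CPM) than in candidates (1282 CPM). Several others of the 10 were also well above other macrophages in microglia: Ccl12 at 2194 CPM (2752 in candidates), Glul at 495 (615), Cd83 at 410 (1282) and Pmp22 at 328 (667). Nlrp3 and Kdm6b are among the leading genes of microglia cluster 7, which held 5 of the 13 candidates. The likeness was measured over 13 candidates and 2 libraries. At the common depth, 1 candidate held 5 UMIs of the platelet gene Ppbp, and 1 held 3 UMIs of Prox1, a gene of lymphatic endothelium.

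**Figure D4:**
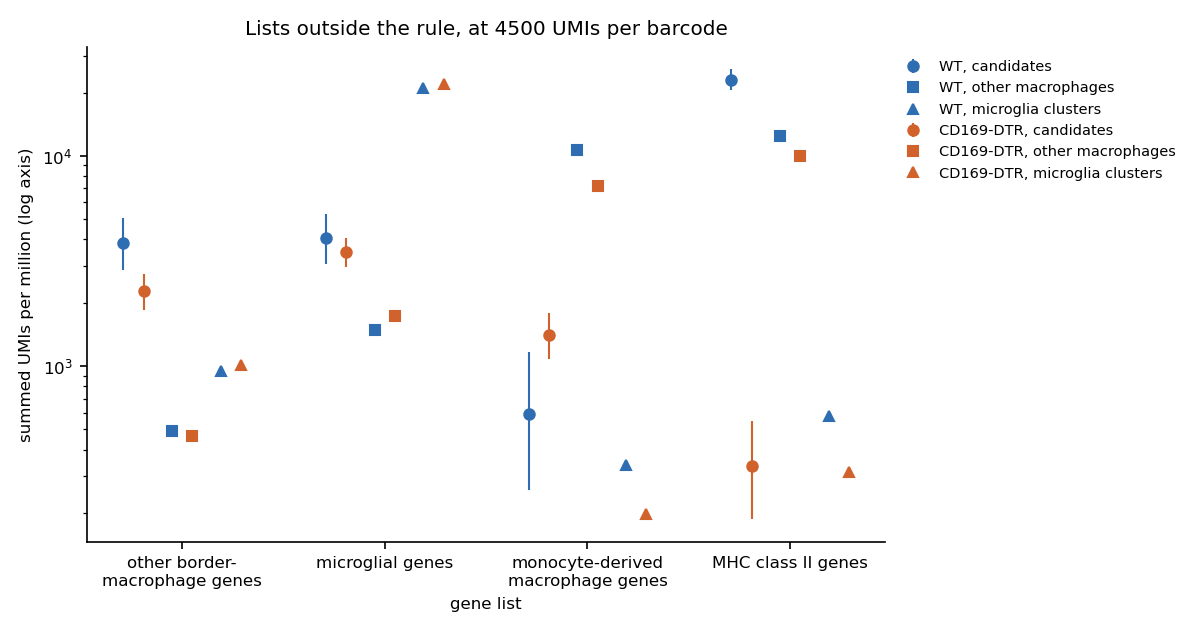
Summed CPM (log axis) of 4 gene lists that did not choose the candidates, in candidates (circles, with 95% Poisson intervals), other macrophages (squares) and microglia clusters (triangles) of WT (blue) and CD169-DTR (orange). The other border-macrophage genes are highest in the candidates in both libraries, the monocyte genes in other macrophages, and MHC class II in the WT candidates, where 1 of 3 carries it.

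Outside the candidates, Pf4 and Cbr2 occurred together in macrophages of cluster 3. This pair was picked after its values were seen and is given as a description. Of the 44 WT macrophages with Cbr2, 26 (59.1%) also held Pf4, against 7.46% of the macrophages without Cbr2. In CD169-DTR 10 of 18 (55.6%) did, against 11.1%, but these 10 include the 4 candidates in macrophage clusters, which were chosen by these genes. No WT candidate lay in a macrophage cluster. Without the candidates, 26 WT and 6 CD169-DTR barcodes held both, 24 and 5 of them in cluster 3. They held no UMI of Lyve1, Cd163 or Cd209f and 3 and 1 UMIs of Mrc1 at the common depth. Their other border-macrophage genes summed to 1231 CPM in WT, where 54 of the 144 UMIs were of Ccl8, and to 667 CPM in CD169-DTR. Macrophages with Pf4 without Cbr2 were close to this, at 1055 and 692 CPM, so the level was not particular to the pair. Macrophages with neither gene were at 426 and 433 CPM, but only 31.4% and 41.2% of them lay in cluster 3. Their monocyte genes summed to 3632 and 3852 CPM, with Ly6c2 at 607 and 556 CPM, so these barcodes differed from the candidates, which had no Ly6c2.

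The candidates made up 3.69 per 10000 deep barcodes in WT (0.761 to 10.8) and 15.3 per 10000 in CD169-DTR (7.33 to 28.1), a log2 ratio of WT over CD169-DTR of −2.05 (−4.55 to −0.09). As a share of macrophages and candidates together they were 3 of 1629 (0.184%; 0.0380 to 0.537) in WT and 10 of 661 (1.51%; 0.728 to 2.76) in CD169-DTR, a log2 ratio of −3.04 (−5.54 to −1.08). This denominator held 1626 WT and 655 CD169-DTR barcodes of macrophage clusters. The counts depend on the draw of UMIs: over 100 draws they ranged from 1 to 5 in WT (median 2.5) and from 5 to 10 in CD169-DTR (median 8), so the 10 used here is the highest. Without thinning, the log2 ratio per barcode was −0.63 (−1.88 to 0.59). Barcodes with these genes were thus detected in both libraries, and a lower share in CD169-DTR than in WT was not detected at this depth. These are shares of the sorted barcodes of 1 library per group and give no number of cells per brain. Other classes differed in size too: macrophage clusters held 2309 WT and 736 CD169-DTR kept barcodes and DC clusters 1154 and 236. The last DT was on day 4 and the cells were taken at 10 dpi, so the days between were not sampled. With 5 or more members required, 2 WT and 5 CD169-DTR barcodes were left.

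In macrophages, where 6 of the 8 genes had the 20 UMIs needed, 2 were past 2-fold higher in CD169-DTR (Folr2 and Cd209f), where 1.62% of 11759 genes were. None of the 6 was past 2-fold higher in WT, where 3.74% were. The log2 ratios of WT over CD169-DTR were −0.56 (−0.82 to −0.31) for Mrc1, −0.25 (−0.64 to 0.16) for Cbr2, −0.41 (−0.52 to −0.29) for Pf4 and −0.41 (−0.52 to −0.30) for Clec4n. The median over all genes tested was −0.04. Folr2, with 26 and 35 UMIs, was at −1.37 (−2.16 to −0.59), or −2.59 with free RNA subtracted at the mean lymphocyte level, and Cd209f, with 2 and 18 UMIs, at −4.11 (−7.26 to −2.05).

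Both values past 2-fold rested on the 4 candidates in these clusters, all of CD169-DTR and chosen for these genes. Without them Folr2 was at −0.83 (−1.69 to 0.03), Cd209f had 2 UMIs in WT and none in CD169-DTR, and none of the 5 members still testable was past 2-fold in either direction (1.55% of genes higher in CD169-DTR and 3.72% higher in WT). Mrc1 stayed at −0.46 (−0.71 to −0.19), Pf4 at −0.32 (−0.44 to −0.20) and Clec4n at −0.41 (−0.52 to −0.30), while Cbr2 moved to 0.31 (−0.14 to 0.78).

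Pf4 differed in direction between macrophage clusters. In cluster 3 it was at 183 CPM in WT and 147 CPM in CD169-DTR (0.31; 0.19 to 0.44), and in cluster 4 at 10.7 and 85.7 CPM (−3.01; −3.36 to −2.66). Mrc1 in cluster 4 was at 14.3 and 34.6 CPM (−1.28; −1.66 to −0.89), and in cluster 3 at 20.4 and 22.8 CPM (−0.16; −0.51 to 0.19). These Pf4 and Mrc1 values include the candidates, all of CD169-DTR and chosen for these genes. Of the 255 Pf4 UMIs of CD169-DTR in cluster 4, candidates 3 and 10 held 30 and 18. How far a few barcodes carried the rest was not measured by cluster, and the intervals do not cover it. Without the candidates, the monocyte genes of cluster 4 summed to 13496 CPM in WT and 11212 CPM in CD169-DTR, and those of cluster 3 to 5647 and 3757 CPM, with median depths of 4719 and 16032 UMIs in cluster 3. The part of these differences in the values of Pf4 and Mrc1 was not tested. In the Cd209a cluster of DCs, Clec4n was at 42.5 CPM in WT and 154 CPM in CD169-DTR, and over all DCs its log2 ratio was −1.99 (−2.19 to −1.79) and that of Mrc1 −1.80 (−2.12 to −1.48). Monocyte genes in that cluster summed to 6974 and 4864 CPM, and their part was not tested either.

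Over all kept barcodes, the log2 ratio lay between −0.26 and 0.42 for 7 of the 8 members. The log2 ratio was −0.22 (−0.38 to −0.07) for Mrc1, −0.26 (−0.55 to 0.02) for Cbr2, −0.11 (−1.13 to 0.92) for Lyve1, 0.42 (−0.21 to 1.06) for Cd163 and −0.22 (−0.43 to −0.02) for Folr2. It was 0.24 (0.14 to 0.34) for Pf4 and 0.12 (0.03 to 0.21) for Clec4n. Macrophage clusters held 2309 WT and 736 CD169-DTR barcodes, and the part of this in the 2 ratios was not tested. Of the 8 genes, 1 was past 2-fold higher in CD169-DTR (Cd209f, −3.04; −4.75 to −1.67), where 2.83% of 16707 genes were, and none in WT, where 4.19% were. Leaving out the candidates takes out barcodes that were chosen for these genes, 10 of them in CD169-DTR and 3 in WT, so a shift towards WT follows from the choice. Without them Cbr2 turned from −0.26 to 0.33 (0.01 to 0.66), Lyve1 from −0.11 to 0.73 (−0.50 to 2.07), and Cd163 was left with 54 WT and 10 CD169-DTR UMIs. Lyve1 was also at 0.97 without the highest 8% of doublet scores, and 8 of its 17 CD169-DTR UMIs lay in 1 such barcode. Fewer cells of a kind and less RNA per cell give the same sum in such totals and cannot be told apart in them.

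**Figure D5:**
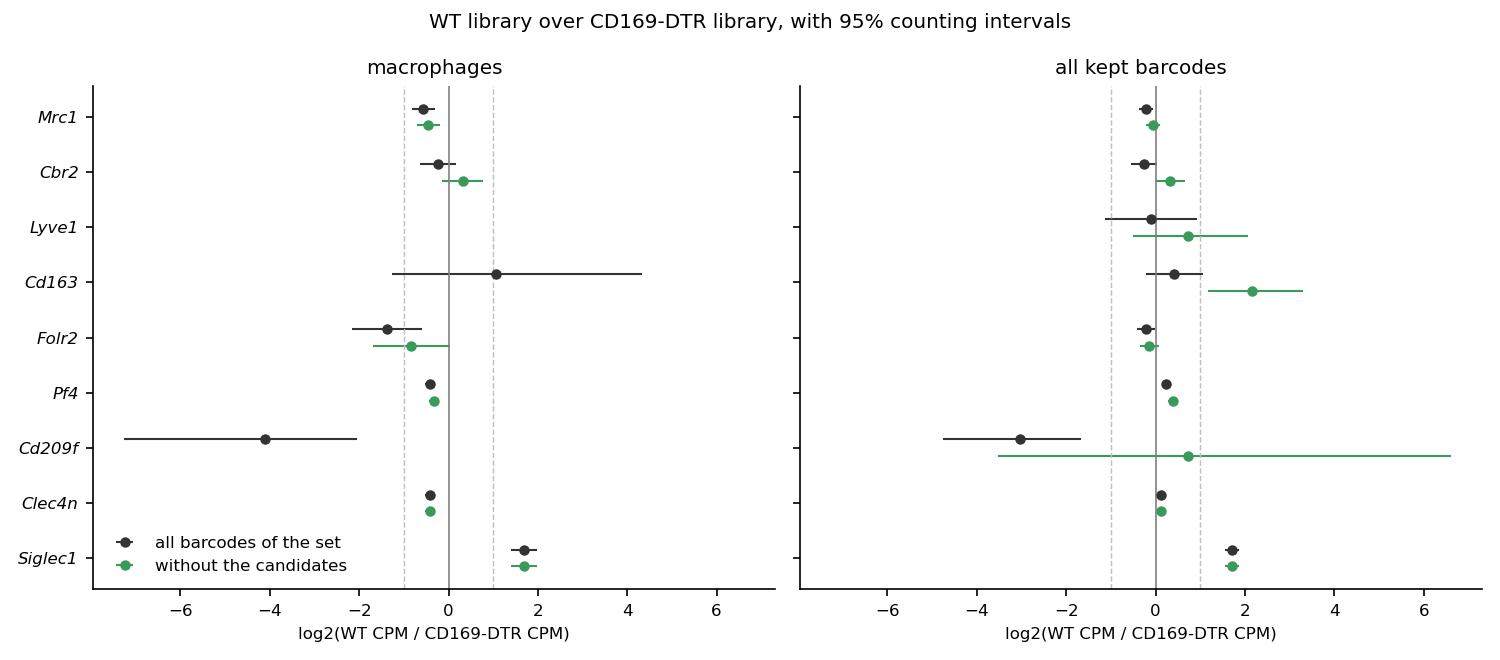
Log2 ratio of WT over CD169-DTR in CPM, with exact 95% counting intervals, for the 8 genes and Siglec1 in macrophage clusters (left) and all kept barcodes (right), with all barcodes (black) and without the 13 candidates, which were chosen by these genes (green); dashed lines mark 2-fold, and genes with no UMI in a library are not drawn. Siglec1 lies at 1.69 and 1.70, and Folr2 and Cd209f in macrophages lie past 2-fold only with the candidates.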

How the data were processed

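The authors made UMI counts with Cell Ranger 3.1.0 on mm10 and deposited raw counts of all 6794880 droplet barcodes per library, without normalization. Barcodes under 1000 UMIs or over 17% mitochondrial UMIs were left out, and doublets were not removed. 249 WT and 218 CD169-DTR barcodes failed the mitochondrial limit. Libraries were integrated (2000 features, 50 dimensions) and clustered (30 dimensions, resolution 1) in Seurat 5.3.0 (R 4.3.3) without the 8 genes. A cluster name needed 3 detected markers, and each class is marker-based. Counts were summed per class and scaled to CPM, and shares were taken after 1 thinning to 4500 UMIs in python 3.11.15 (scipy 1.17.1). Doublets were scored with Scrublet (scanpy 1.11.5). Intervals (95%) are exact Poisson, Clopper-Pearson or conditional, and a count of 0 is given the limit of 3 counts. Folds of 2 were counted among genes with 20 or more UMIs. Named genes are the 8 members, Siglec1, the marker lists and the 10 genes most like the members in the candidates. Members, lists and tests were chosen with earlier results of these data known. The limits for naming clusters came after a first look at the values. The fold and thinning steps were tested on simulated data.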

Additional observations from a re-analysis of the deposited data

How the results depend on the processing

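No paired analysis was possible because each group has 1 library. The share of candidates in WT over that in CD169-DTR, as a log2 ratio, stayed below 0 under all alternatives run, from −0.63 without thinning to −3.12 with at most 30 microglial UMIs per 10000 (1 and 7 candidates) among deep barcodes, and its interval took in 0 without thinning, without the highest 8% of doublet scores, with a lower or higher thinning depth, with 5 or more members, and with 3 or more of Cbr2, Lyve1, Cd163, Folr2 and Cd209f. For the 8 genes summed in macrophages the ratio was −0.43, and it moved to −0.36 without integration, −0.59 with equal weight per barcode, −0.27 with free RNA subtracted (mean lymphocyte level) and −0.35 without the candidates and cluster 7. Over all kept barcodes the sum was at 0.06, and at 0.16 with median-ratio scaling, 0.21 with equal weight and 0.12 without the candidates and cluster 7. The count of 2 members past 2-fold in macrophages became 0 with a minimum of 100 UMIs per gene, since neither then qualifies, and 0 without the candidates. Cd209f over all barcodes reversed to 0.68 without the candidates and cluster 7, on 3 or fewer UMIs. The causes of the other changes were not tested. The alternatives of 100 draws, the microglial limit, the median lymphocyte level and the background without cluster 10 were chosen after seeing the data. Depth limits the rare genes: Lyve1, Cd163 and Cd209f rest on 5 to 58 UMIs per library.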

Other observations

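Barcodes that the limits left out held few of the 8 genes. Of the 249 WT and 218 CD169-DTR barcodes above 17% mitochondrial UMIs, 9 and 9 held 1 member and none held 2 or more. Of the 1910 and 1177 barcodes with at least 200 but under 1000 UMIs, 14 and 8 held 1 member and none held 2 or more. Lyve1, Cd163 and Cd209f had no UMI in any of them.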
